A study of Mus musculus with 12 samples.

Results

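The genes described here are 8 transcription factors of spinal motor neuron development: Nkx6-1 and Nkx6-2, Onecut1, Onecut2 and Onecut3, and Ebf1, Ebf2 and Ebf3. They were taken by gene symbol from a table of 30740 symbols, and each of the 8 was found once. Their RNA was measured by polyA RNA sequencing in mouse embryos (CB6F1/J, E12.5) that carry Hb9:GFP, a transgene in which the promoter of the motor neuron gene Mnx1 (Hb9) drives a fluorescent protein. Cells of the ventral spinal cord were dissociated, after pooling as the protocol is read here, and sorted by fluorescence.

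The libraries comprise 5 of GFP-positive cells from Arhgap35 knockout embryos, 5 of GFP-positive cells from control littermates, 1 of GFP-negative cells from knockout embryos and 1 of GFP-negative cells from controls. Arhgap35 encodes p190, a GTPase-activating protein. The labels call the controls wild type, while the protocol allows heterozygotes among them, and all groups carry the reporter. Nothing states that replicates came from separate litters, so each p-value rests on the spread among these libraries, which may be technical. The labels name every sample a motor neuron, GFP-negative cells included.

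Library totals ran from 23.7 to 33.8 M estimated counts. Arhgap35 averaged 96.9 ± 7.84 CPM (counts scaled to a common library size) in knockout and 173 ± 25.6 CPM in control GFP-positive cells (SD, n = 5 each). By edgeR's quasi-likelihood test this difference was called (log2 fold change -0.83, adjusted p = 0.0240). Once replicate numbers entered the fit as a block, it no longer passed (adjusted p = 0.162), while the log2 fold change was -0.82. Mnx1 ran from 230 to 315 CPM over the 10 GFP-positive libraries and stood at 0.438 CPM in knockout and 0.508 CPM in control GFP-negative cells. Chat, which makes acetylcholine, averaged 84.3 CPM in GFP-positive cells, against 1.32 CPM in knockout and 0.881 CPM in control GFP-negative cells. The Mnx1 promoter drives the reporter that was sorted, so Mnx1 is no independent sign of what the GFP-negative cells are. Mnx1, Chat and Isl2 (0.183 CPM in the knockout and 0.170 CPM in the control) were near 0 in the GFP-negative libraries, against their label. Isl1 stood there at 25.9 CPM in the knockout and 26.5 CPM in the control, and Lhx3 at 11.1 CPM in the knockout and 12.7 CPM in the control. In bulk libraries such as these, fewer cells that express a gene and less RNA per cell cannot be told apart.

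Nkx6 proteins are homeodomain repressors that Sonic hedgehog signalling switches on in ventral progenitors. They recruit Groucho/TLE corepressors, hold down Dbx genes and are needed for motor neuron formation, and Nkx6-1 persists in some motor neurons after they leave the cell cycle. Onecut proteins pair a cut domain with a homeodomain, and in mouse motor neurons they maintain Isl1, a LIM homeodomain gene of motor neuron identity. Ebf proteins are helix-loop-helix factors that come on as newborn neurons leave the cell cycle and begin to migrate and differentiate.

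The 8 genes lie on 7 chromosomes (GRCm38 positions from GENCODE M21, the build that mm10 names). Nkx6-1 is on chromosome 5 (101658139 to 101664996), Onecut1 on 9 (74861921 to 74891781), Onecut3 on 10 (80494835 to 80517276) and Ebf1 on 11 (44617317 to 45008091). Ebf2 is on chromosome 14 (67233292 to 67430918), and the position of Onecut2 is not given here. Ebf3 (137193673 to 137314445) and Nkx6-2 (139579376 to 139582797) share chromosome 7 with Arhgap35, 120.6 and 123.0 Mb away from it.

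RefSeq promoters on GRCm38.p6 were matched for 5 of the 8 genes. The windows of 250 bases upstream of the annotated start are shown for 1 gene of each family. They set a gene that was higher in GFP-positive than in GFP-negative cells (Onecut1) beside one that was lower (Ebf3). The remaining gene is one whose difference missed the threshold (Nkx6-2). None of these windows overlaps an annotated exon.
Nkx6-2 (chr7:139582798-139583047, minus strand): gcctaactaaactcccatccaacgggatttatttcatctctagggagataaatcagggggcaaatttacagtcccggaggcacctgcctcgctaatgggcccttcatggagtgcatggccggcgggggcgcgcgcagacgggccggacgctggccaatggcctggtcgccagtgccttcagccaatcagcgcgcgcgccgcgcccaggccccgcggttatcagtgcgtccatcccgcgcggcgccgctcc
Onecut1 (chr9:74861671-74861920, plus strand): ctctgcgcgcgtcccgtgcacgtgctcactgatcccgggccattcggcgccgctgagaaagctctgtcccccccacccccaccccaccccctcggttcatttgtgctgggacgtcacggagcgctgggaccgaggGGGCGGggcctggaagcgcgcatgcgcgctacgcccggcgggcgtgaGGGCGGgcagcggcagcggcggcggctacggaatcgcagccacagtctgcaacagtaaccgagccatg
Ebf3 (chr7:137314446-137314695, minus strand): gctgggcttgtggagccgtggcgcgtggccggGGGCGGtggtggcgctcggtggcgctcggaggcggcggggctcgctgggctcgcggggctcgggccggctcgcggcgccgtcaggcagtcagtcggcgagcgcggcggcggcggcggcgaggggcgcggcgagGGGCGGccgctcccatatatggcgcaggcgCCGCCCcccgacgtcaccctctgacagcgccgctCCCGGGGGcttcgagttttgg

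Capitals mark any of 5 motifs searched on both strands: TAATTA, the homeodomain core; ATTGAT and ATCGAT, cores of Onecut sites; CCCNNGGG, the Ebf palindrome; and GGGCGG, the GC box. Onecut1 holds 2 GC boxes, Ebf3 holds 3 and an Ebf palindrome, and Nkx6-2 holds none of the 5, with no overlap between matches. Among 32851 promoter windows of the same length, 32.7% hold GGGCGG, 11.8% hold CCCNNGGG, 6.72% hold ATTGAT, 4.84% hold TAATTA and 0.728% hold ATCGAT. The windows are GC-rich, at 65.2% for Nkx6-2, 71.6% for Onecut1 and 80.0% for Ebf3, against a median of 52.4% over all windows. A match or its absence describes these letters alone.

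GFP-positive cells held more Nkx6-1 and more of all 3 Onecut RNAs than GFP-negative cells, and less Ebf1, Ebf2 and Ebf3. Of the 8 genes, 4 were higher and 3 lower in GFP-positive cells at an adjusted p under 0.05, and Nkx6-2 missed the threshold. The test was edgeR's quasi-likelihood F-test over all 12 libraries with genotype as a covariate, and the Benjamini-Hochberg adjustment ran over the 19763 genes tested. In that comparison 61.9% of all genes were called, 30.1% higher and 31.8% lower, and the 7 of 8 genes called are to be read against that share. For 7 of the 8 genes the 10 GFP-positive libraries lay wholly above or below both GFP-negative ones, which held for 60.7% of all genes. The median log2 fold change was 0.64 over the 8 genes and 0.018 over all genes tested.

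Nkx6-1 stood at 41.5, 52.9, 52.9, 50.4 and 49.0 CPM in knockout GFP-positive replicates 1 to 5. In control GFP-positive replicates 1 to 5 it stood at 41.7, 40.7, 48.9, 47.9 and 49.8 CPM. Its level in GFP-negative cells was 10.1 CPM in the knockout and 10.3 CPM in the control library. Every GFP-positive library was thus far above both GFP-negative ones, and the genotypes overlapped. The log2 fold change between GFP-positive and GFP-negative cells was 2.22 (standard error 0.114, edgeR adjusted p = 2.52e-09), or 4.65-fold with a 95% confidence interval of 3.92 to 5.51.

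Nkx6-2, the closest relative of Nkx6-1 and partly interchangeable with it in progenitors, had the lowest mean level of the 8 in GFP-positive cells. Its knockout GFP-positive libraries held 8.28, 6.27, 7.22, 6.09 and 7.97 CPM, and its control GFP-positive libraries 7.45, 4.76, 8.27, 6.07 and 6.52 CPM. GFP-negative cells held 4.53 CPM in the knockout (exact Poisson 95% interval 3.77 to 5.402) and 5.63 CPM in the control library (4.80 to 6.55). These intervals cover counting error only. Control GFP-positive replicate 2 fell below the control GFP-negative library, and the other GFP-positive libraries were above both. Its log2 fold change was 0.44 (standard error 0.188, edgeR adjusted p = 0.0592). In the fit blocked on replicate number, where all 8 genes and 55.6% of all genes were called, it was 0.62 (adjusted p = 0.00774), and without the knockout GFP-negative library 0.23 (adjusted p = 0.488). It passed without control GFP-positive replicate 2 (adjusted p = 0.0156) or knockout GFP-positive replicate 4 (adjusted p = 0.0475). Exons of Nkx6-2 share 246 bases with Inpp5a on the other strand, and 11.6% of its 31-base sequences occur in other transcripts. The kit keeps no strand information and how reads were divided between these genes was not tested, so the level of Nkx6-2 is uncertain. Inpp5a itself averaged 33.9 CPM in knockout and 33.0 CPM in control GFP-positive cells.

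The Onecut genes were higher in GFP-positive cells, in the order Onecut1, Onecut3, Onecut2 by fold. Onecut1, also called Hnf6, stood at 29.6, 22.0, 24.3, 27.9 and 22.9 CPM in knockout GFP-positive replicates 1 to 5. Control GFP-positive replicates 1 to 5 held 32.0, 17.3, 23.9, 23.6 and 22.0 CPM, and GFP-negative cells 7.31 CPM in the knockout and 8.14 CPM in the control library. All 10 GFP-positive libraries exceeded both GFP-negative ones, and replicate 1 was the highest of each genotype. Its log2 fold change was 1.67 (standard error 0.201, edgeR adjusted p = 1.19e-05), or 3.17-fold with an interval of 2.34 to 4.30. Of the 31-base sequences of Onecut1, 53.0% also occur in other transcripts, nearly all of them in the noncoding gene Gm20649, which shares 2171 exon bases with it on the same strand. Gm20649 held 1.38 ± 1.49 CPM in knockout and 2.35 ± 2.64 CPM in control GFP-positive cells (SD, n = 5 each), and how reads were divided between these genes was not tested, so the level of Onecut1 is uncertain.

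Onecut2 had the most counts of the family: 85.9, 60.5, 69.3, 71.0 and 66.8 CPM in knockout GFP-positive replicates 1 to 5. Control GFP-positive replicates 1 to 5 held 108.2, 59.8, 69.9, 70.4 and 60.5 CPM, and GFP-negative cells 41.1 CPM in the knockout and 39.5 CPM in the control library. Control replicate 1 stood apart from the other 4 controls, and every GFP-positive library was above both GFP-negative ones. Its log2 fold change was 0.84 (standard error 0.212, edgeR adjusted p = 0.00488), or 1.79-fold with an interval of 1.30 to 2.48. The call ended without the control GFP-negative library (log2 fold change 0.78, adjusted p = 0.0609). In the fit blocked on replicate number, which sets the GFP-negative libraries against GFP-positive replicate 1, the log2 fold change was 1.27 (adjusted p = 3.14e-06).

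Onecut3 stood at 23.4, 17.6, 17.7, 19.7 and 20.0 CPM in knockout GFP-positive replicates 1 to 5. Control GFP-positive replicates 1 to 5 held 31.8, 16.2, 22.2, 17.3 and 17.8 CPM, and GFP-negative cells 7.67 CPM in the knockout and 8.41 CPM in the control library. The GFP-positive libraries again lay wholly above the GFP-negative ones, with control replicate 1 the highest. Its log2 fold change was 1.34 (standard error 0.235, edgeR adjusted p = 0.000322), or 2.54-fold with an interval of 1.78 to 3.62.

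The Ebf genes ran the other way, with Ebf3 and Ebf2 several-fold lower in GFP-positive cells and Ebf1 less so. Ebf1, known first from B lymphocyte development, stood at 102.4, 87.9, 101.4, 97.1 and 89.3 CPM in knockout GFP-positive replicates 1 to 5. Control GFP-positive replicates 1 to 5 held 107, 96.4, 87.7, 101.7 and 86.4 CPM, against 158 CPM in the knockout and 155 CPM in the control GFP-negative library. Ebf1 varied least of the 8 genes, with a coefficient of variation of 7.77% over the 10 GFP-positive libraries, and no such library reached the GFP-negative level. The log2 fold change was -0.71 (standard error 0.0733, edgeR adjusted p = 1.62e-06), or 1.63-fold lower with an interval of 1.46 to 1.82.

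Ebf2 stood at 42.2, 41.9, 60.0, 40.1 and 29.2 CPM in knockout GFP-positive replicates 1 to 5. Control GFP-positive replicates 1 to 5 held 38.5, 44.6, 35.9, 41.7 and 27.8 CPM, against 160.2 CPM in the knockout and 162 CPM in the control GFP-negative library. Replicate 5 was the lowest of each genotype, and the highest GFP-positive library, knockout replicate 3, was still far below both GFP-negative ones. The log2 fold change was -2.01 (standard error 0.188, edgeR adjusted p = 3.35e-06), or 4.03-fold lower with an interval of 3.01 to 5.38.

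Ebf3 had the highest mean level of the 8 in GFP-positive cells, but its libraries overlapped those of Ebf1. It stood at 128, 111.5, 109.9, 88.2 and 76.2 CPM in knockout GFP-positive replicates 1 to 5. Control GFP-positive replicates 1 to 5 held 156, 129, 80.0, 90.4 and 75.9 CPM, against 513 CPM in the knockout and 516 CPM in the control GFP-negative library. Replicate 1 was the highest of each genotype and replicate 5 the lowest, and no GFP-positive library came near the GFP-negative level. The log2 fold change was -2.30 (standard error 0.231, edgeR adjusted p = 8.38e-06), or 4.92-fold lower with an interval of 3.44 to 7.04. In the fit blocked on replicate number it was -1.86, a smaller fall than that of Ebf2 in the same fit. With that block the log2 fold changes of Nkx6-1 (2.03) and Ebf1 (-0.58) were also smaller in size than without it. Those of Onecut1 (1.99) and Onecut3 (1.78) were larger, as for Onecut2 and Nkx6-2, and that of Ebf2 hardly moved. Other exons share 355 bases with Ebf3 and 424 with Ebf2 on the opposite strand, in the noncoding genes Gm45278 and Gm10860, and 3.09% and 5.43% of their 31-base sequences occur elsewhere.

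**Figure D1:**
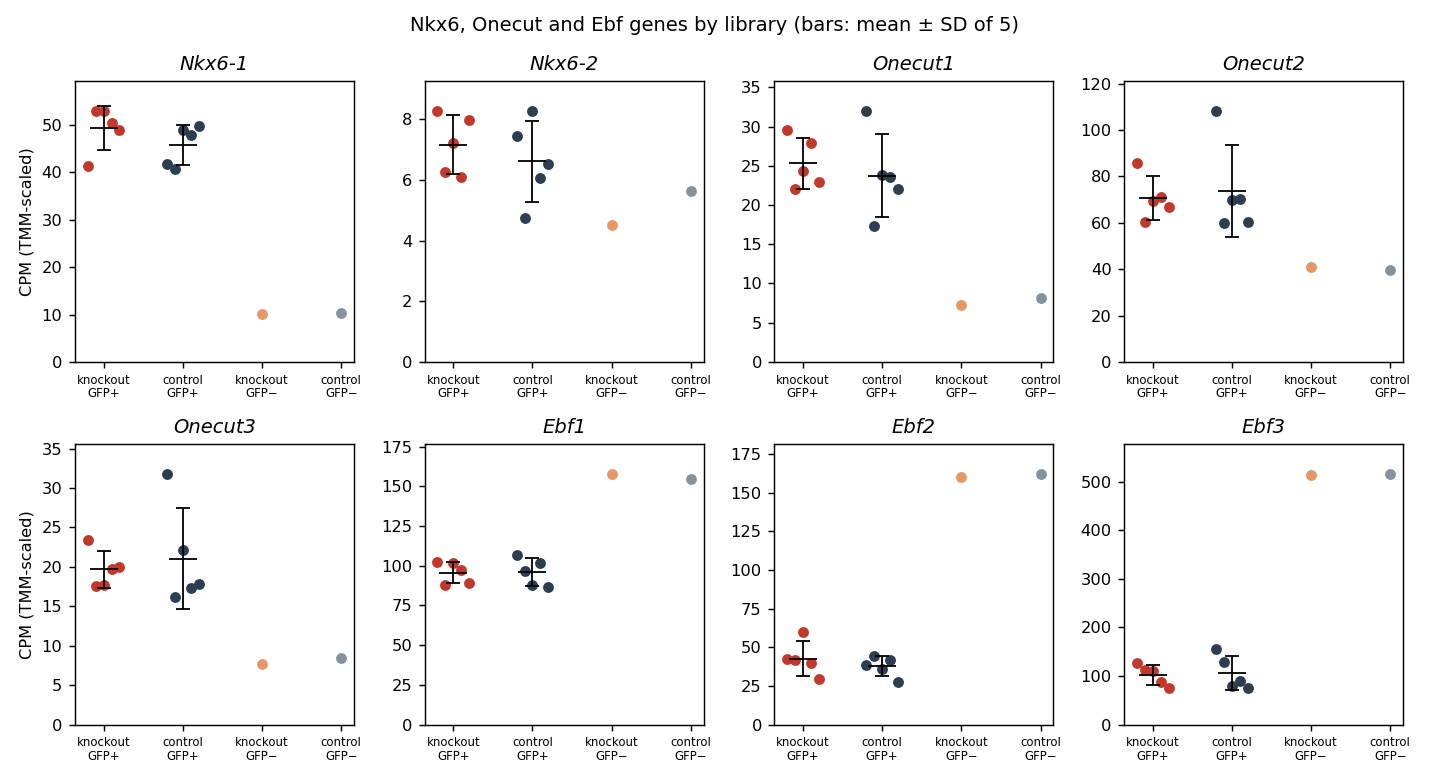
Each panel plots 1 gene, with CPM (TMM-scaled library sizes) on a linear axis from 0 and the groups on the other axis; points are libraries, and bars give the mean and SD of the 5 GFP-positive libraries of a genotype. Nkx6-1 and the 3 Onecut genes sit higher in GFP-positive cells and the 3 Ebf genes lower, while the genotypes overlap in every panel.

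**Figure D2:**
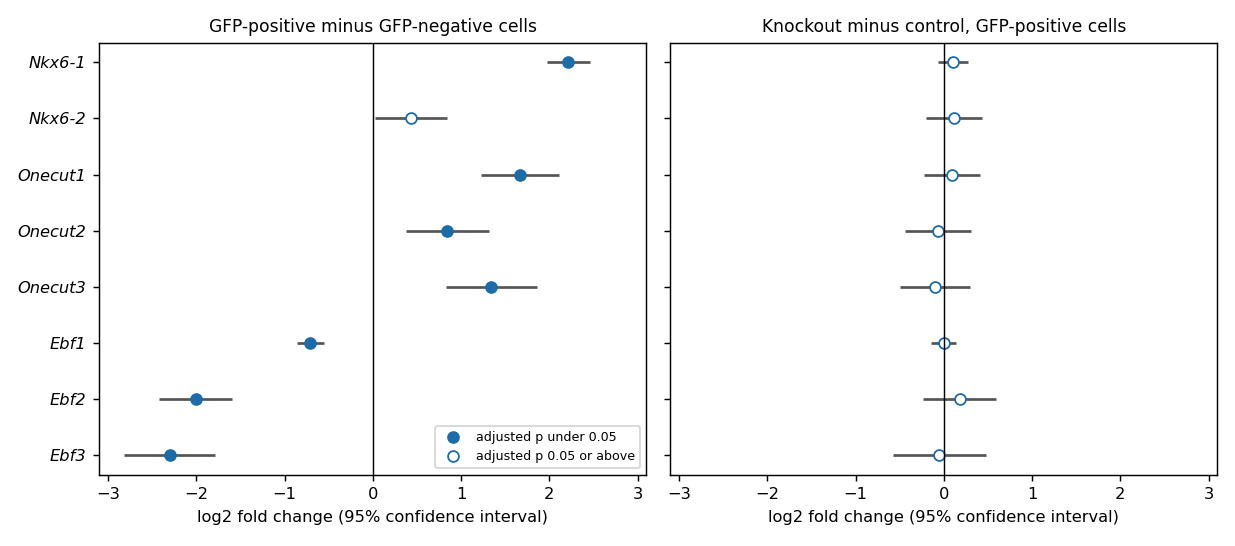
Log2 fold changes with 95% confidence intervals from edgeR, with GFP-positive against GFP-negative cells on the left and knockout against control GFP-positive cells on the right. Filled points have an adjusted p under 0.05: 7 genes on the left, from -2.30 for Ebf3 to 2.22 for Nkx6-1, and none on the right.

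Levels can be set side by side between genes only per transcript length, for which the deposited TPM values (transcript abundance scaled by length and library) were used. In knockout GFP-positive cells the order was Ebf3 at 49.8 ± 9.53 TPM, Ebf1 at 48.5 ± 5.21, Nkx6-1 at 33.6 ± 3.04, Ebf2 at 19.6 ± 5.11, Onecut1 at 16.3 ± 2.05, Onecut2 at 12.1 ± 1.69, Onecut3 at 9.48 ± 1.19 and Nkx6-2 at 8.64 ± 1.20 TPM (SD, n = 5). Control GFP-positive cells had the same order, with 50.9 ± 16.9 TPM for Ebf3, 48.2 ± 5.65 for Ebf1, 31.03 ± 2.63 for Nkx6-1, 17.2 ± 3.01 for Ebf2, 15.2 ± 3.51 for Onecut1, 12.6 ± 3.47 for Onecut2, 10.1 ± 3.11 for Onecut3 and 8.09 ± 1.57 TPM for Nkx6-2 (SD, n = 5). In both genotypes only the steps from Ebf1 to Nkx6-1 and from Nkx6-1 to Ebf2 separated all 5 libraries of one gene from all 5 of the next. The other neighbours in that order overlapped. The places of Onecut1 and Nkx6-2 rest on levels that are uncertain, as given above. Ebf3 lay above 85.8% of all symbols in knockout and 86.0% in control GFP-positive cells, and Nkx6-2 above 65.5% and 65.0%.

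GFP-negative cells had a different order. Ebf3 reached 240.3 TPM in the knockout and 245 TPM in the control library, above 97.9% of symbols in each. Ebf1 followed at 76.2 TPM in the knockout and 73.1 TPM in the control library, and Ebf2 at 71.7 TPM in the knockout and 72.9 TPM in the control library. The other 5 genes lay between 3.58 TPM (Onecut3) and 6.85 TPM (Onecut2) in the knockout library, and between 3.97 TPM (Onecut3) and 6.90 TPM (Nkx6-1) in the control library. With 1 library per genotype, the order within those 5 has no spread to be read against.

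The families also differed in make-up between the sorted populations. Summed over Ebf1, Ebf2 and Ebf3, GFP-positive cells held 118 ± 16.9 TPM in knockouts and 116 ± 23.4 TPM in controls (SD, n = 5 each), against 388 TPM in the knockout and 391 TPM in the control GFP-negative library. Ebf3 made up 37.7 to 51.1% of that sum in the 10 GFP-positive libraries, against 61.9% in the knockout and 62.7% in the control GFP-negative library. Nkx6-2 made up 17.1 to 26.1% of Nkx6 TPM in GFP-positive cells, against 44.2% in the knockout and 49.0% in the control GFP-negative library. Onecut1 held the largest share of Onecut TPM in every GFP-positive library (37.8 to 44.7%), while Onecut2 did so in both GFP-negative libraries, at 47.1% in the knockout and 42.1% in the control. These shares between sorted populations are a description without a test. Nkx6 and Onecut shares rest on the levels of Nkx6-2 and Onecut1, which are uncertain because of the sequence they share with other genes. How far the division of reads shaped these shares was not tested.

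**Figure D3:**
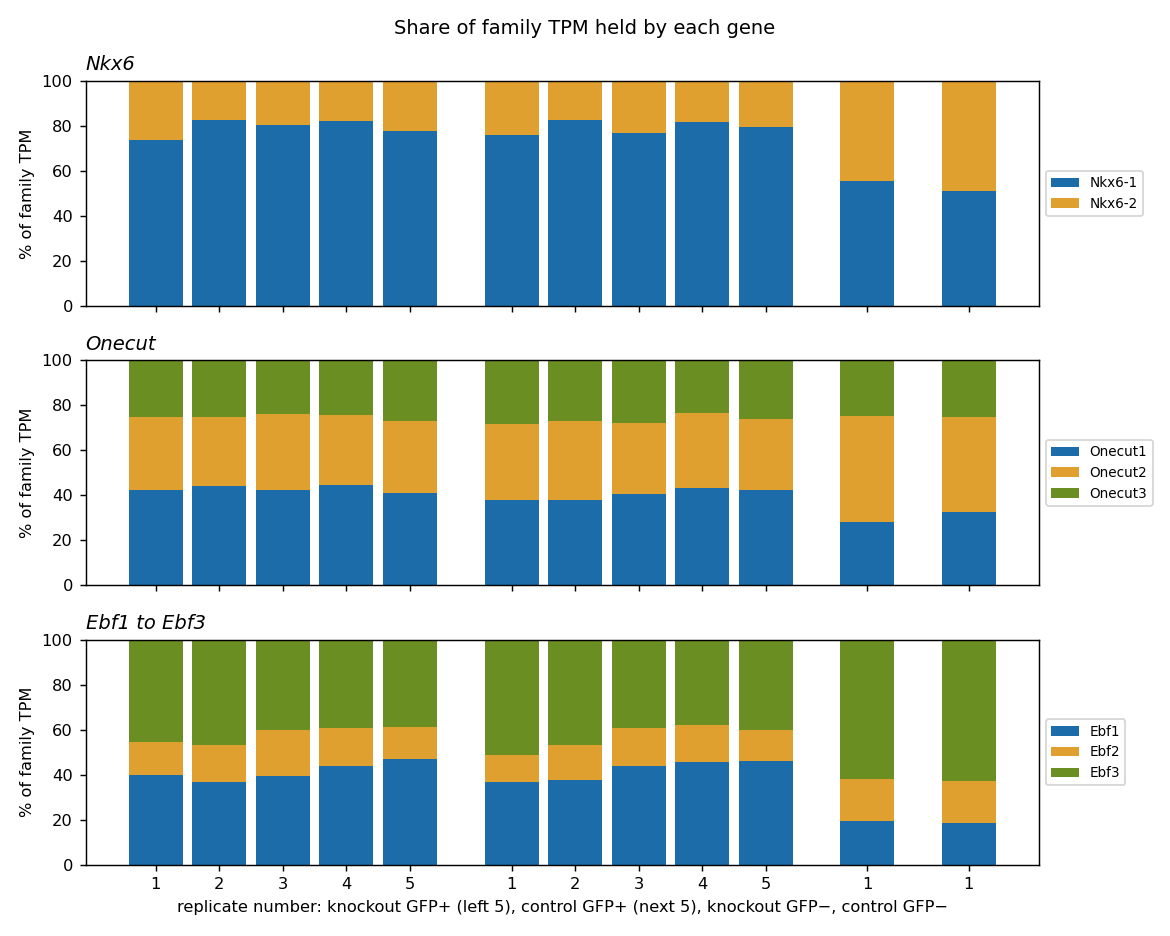
Stacked bars give the percentage of family TPM held by each gene in each of the 12 libraries, from 0 to 100%, with knockout GFP-positive, control GFP-positive, knockout GFP-negative and control GFP-negative libraries in that order. The 2 GFP-negative bars differ from the 10 GFP-positive ones in each family, with Nkx6-2 at 44.2 and 49.0% and Ebf3 at 61.9 and 62.7%. The levels of Nkx6-2 and Onecut1 are uncertain, since how reads were divided between them and overlapping genes was not tested.

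Knockout and control GFP-positive cells were compared to see which RNAs differ when Arhgap35 is lost. None of the 8 genes passed edgeR's test over 17487 genes, of which 0.0343% were called, and none had an unadjusted p under 0.05, which 2.14% of all genes had. DESeq2 and limma-voom called none of the 8 either, nor did the fit blocked on replicate number, in which 0.0286% of all genes were called. Nkx6-1 averaged 49.3 ± 4.71 CPM in knockout and 45.8 ± 4.25 CPM in control cells (SD, n = 5 each), with a log2 fold change of 0.11 and a 95% confidence interval of -0.062 to 0.28. For Ebf1 the interval ran from -0.15 to 0.14 around -0.0034, the narrowest of the 8. For Ebf3 it ran from -0.58 to 0.47 around -0.052, the widest in this fit. Its averages were 103 ± 20.4 CPM in knockout and 106 ± 34.8 CPM in control cells (SD, n = 5 each). In the fit blocked on replicate number the interval of Ebf3 was -0.34 to 0.30, and the widest was that of Ebf2 (-0.19 to 0.52). Without the block, log2 fold changes of the other 5 lay between -0.10 (Onecut3) and 0.18 (Ebf2). The median over the 8 was 0.044, against -0.0016 over all genes tested.

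For none of the 8 genes did the libraries of the genotypes separate, which happened for 0.538% of all genes tested. Control replicate 1, the highest control library for all 3 Onecut genes, Ebf1 and Ebf3, changed the sign of 4 of these differences when left out. Without it the log2 fold change was 0.12 for Onecut2, 0.099 for Onecut3, 0.13 for Ebf3 and 0.039 for Ebf1, against -0.063, -0.10, -0.052 and -0.0034 with it, and no gene of the 8 was called. The difference of Ebf3 was also positive without control replicate 2 (0.027) or knockout replicate 5 (0.038), and that of Ebf1 without control replicate 4 (0.019) or knockout replicates 2 (0.025) or 5 (0.020). For Ebf2 the log2 fold change was 0.025 without knockout replicate 3, its highest library, and 0.29 without knockout replicate 5. Between libraries of the same replicate number, the knockout was higher in 4 of 5 pairs for Nkx6-2 and Onecut1 and in 2 or 3 of 5 for the others.

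The share of each gene in its family was tested between genotypes with a two-sided exact permutation test (5 libraries in each group), which cannot give a p below 0.00794. Onecut1 held 42.9 ± 1.42% of Onecut TPM in knockout and 40.3 ± 2.50% in control GFP-positive cells (SD, n = 5 each; exact permutation p = 0.103, adjusted p = 0.529 over the 8 genes). Onecut2 held 32.0 ± 1.17% in knockouts and 33.2 ± 1.65% in controls, and Onecut3 25.04 ± 1.10% in knockouts and 26.4 ± 2.01% in controls (SD, n = 5 each). No share passed, and the remaining 5 had adjusted p of 0.730 to 0.992 by the same exact test. Here too the Onecut and Nkx6 shares rest on the uncertain levels of Onecut1 and Nkx6-2. Ebf2 held 16.5 ± 2.56% of Ebf TPM in knockouts and 15.0 ± 2.03% in controls, and its share was higher in the knockout in 5 of 5 same-numbered pairs, by 0.327 to 3.60 percentage points. An exact paired permutation test, chosen after the values were seen, gave p = 0.0625 for it (adjusted p = 0.500 over the 8 genes), which is the smallest p that 5 pairs allow.

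GFP-negative cells had 1 library per genotype, and the genotype alone was not tested there. The difference of the knockout effects in GFP-negative and GFP-positive cells was tested in a fit with 4 group means, which takes the spread of each lone library from the groups that have replicates. None of the 8 passed that test, in which 0.0253% of 19763 genes were called, and their unadjusted p ran from 0.264 to 0.946, while 1.78% of all genes were under 0.05. The fit blocked on replicate number called 0.00506% of all genes and none of the 8. The largest difference was that of Nkx6-2, at -0.43 with a 95% confidence interval of -1.22 to 0.37 on the log2 scale. The widest interval was that of Ebf3, from -1.23 to 1.32, and the narrowest that of Ebf1, from -0.32 to 0.39. Differences within a gene's own interval cannot be read from these libraries.

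The GFP-positive libraries were also compared by replicate number. Replicate 1 was the highest library of both genotypes for Onecut1, Onecut2, Onecut3, Ebf1 and Ebf3. Control replicate 1 held 1.66 times the mean of the other 4 control libraries for Onecut2, 1.73 times for Onecut3 and 1.66 times for Ebf3. Knockout replicate 1 held 1.28, 1.25 and 1.32 times the mean of the other 4 knockout libraries for the same 3 genes. Nkx6-1 did the opposite in knockouts, where replicate 1 was the lowest.

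A test of the replicate number itself, chosen after the values were seen, used edgeR's quasi-likelihood F-test with genotype as a covariate. It called Onecut1 (F = 11.6, adjusted p = 0.0195) and Onecut2 (F = 14.8, adjusted p = 0.0238), that is 2 of the 8 genes, while 9.71% of all genes were called. Ebf3 had an adjusted p of 0.141 (0.0348 by limma-voom, which called it as well), Onecut3 one of 0.143 and Ebf1 one of 0.196. Both calls ended without replicate 1 (adjusted p of 0.101 for Onecut1 and 0.0743 for Onecut2). Without replicate 2 the adjusted p of Onecut2 was 0.0794, and without replicate 5 that of Onecut1 was 0.0564. Without replicate 3, Ebf1, Ebf2 and Ebf3 were called as well (adjusted p of 0.0335, 0.00302 and 0.00150), and without replicate 2 so was Nkx6-1 (adjusted p = 0.0295).

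Markers of other cell types differed between these libraries. The mean log2 CPM of 21 ventral interneuron markers was 2.42 in knockout replicate 1, against 0.831 to 1.86 in the other knockout GFP-positive libraries, and 2.81 in control replicate 1, against 0.674 to 2.11 in the other controls. Summed over the list, the highest level was in replicate 4 instead, at 262 CPM in the knockout and 317 CPM in the control, with 251 CPM in knockout and 286 CPM in control replicate 1. The mean of 12 progenitor markers was likewise highest in replicate 1, at 3.50 in the knockout and 3.69 in the control, against 1.96 to 3.32 in other knockout and 1.87 to 3.22 in other control libraries. Summed, progenitor markers reached 521 CPM in knockout replicate 1, below knockout replicates 2 (541 CPM) and 3 (539 CPM), and 570.2 CPM in control replicate 1, the highest control. Means of the sensory, endothelial, mesenchyme and erythroid lists were highest among knockout libraries in replicate 2, at 2.41, 0.51, -0.075 and 1.38, against 1.61, -0.59, -0.91 and -0.72 in knockout replicate 1. Among controls, replicate 1 was highest for the sensory (1.72), mesenchyme (-1.04) and erythroid (0.158) means, and replicate 5 for the endothelial mean (-0.533). The mean of the ventral patterning genes was highest in replicate 1 of both genotypes, at 1.13 in the knockout and 1.49 in the control. Genes of the motor neuron programme summed to 2842 CPM in knockout replicate 1, the lowest knockout. In control replicate 1 they summed to 2804 CPM, above control replicate 2 (2691 CPM). Their mean log2 CPM in replicate 1, 5.99 in the knockout and 6.05 in the control, was the lowest in neither genotype. No marker of the interneuron or progenitor list was at 0 in all GFP-positive libraries. In GFP-negative cells the interneuron markers summed to 593 CPM in the knockout and 663 CPM in the control library, where the Onecut genes were lower and Ebf3 higher. The part of these cells in the replicate differences was not tested.

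**Figure D4:**
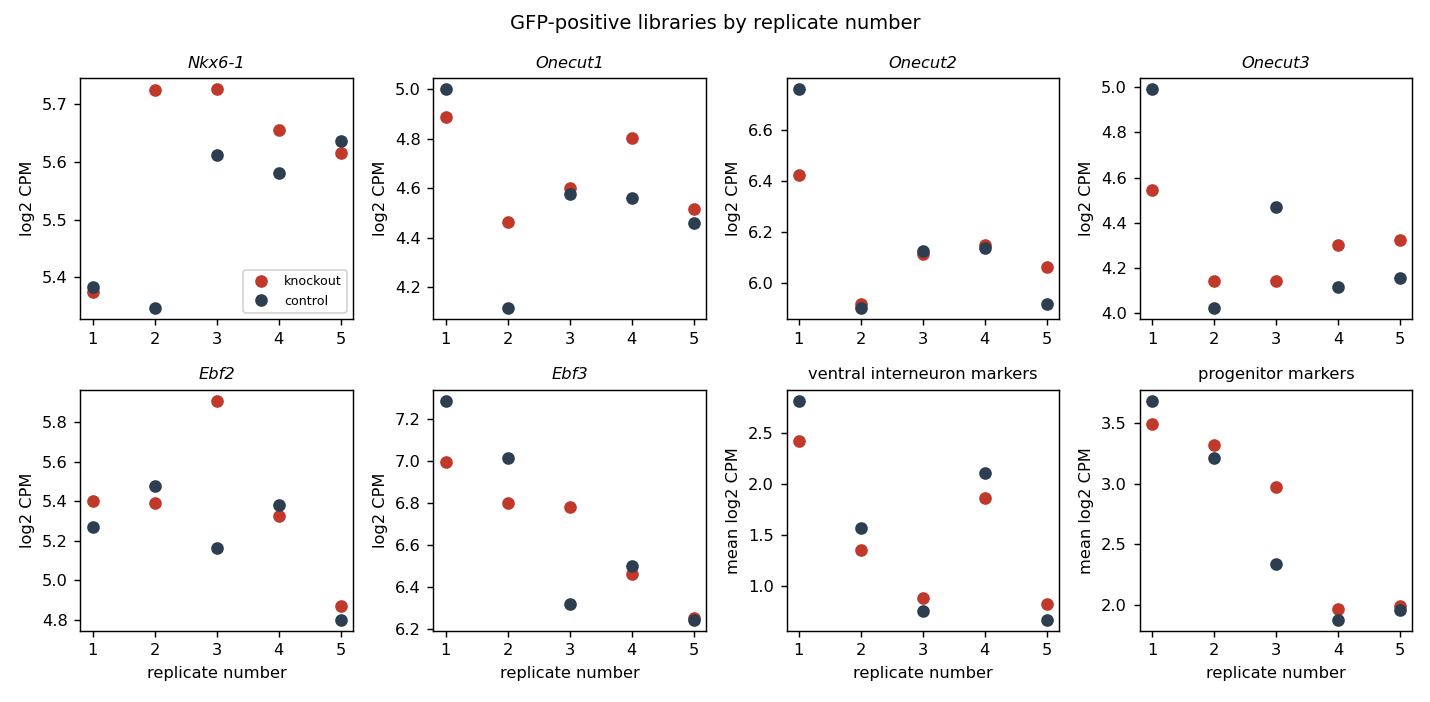
Points are GFP-positive libraries by replicate number (knockout and control), with log2 CPM of 6 genes and the mean log2 CPM of 2 marker lists on the other axis, whose range differs by panel; replicate numbers have no order. Replicate 1 of both genotypes lies highest for Onecut1, Onecut2, Onecut3, Ebf3 and both lists, with interneuron markers at 2.42 in the knockout and 2.81 in the control.

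Relatives and protein partners of the 8 genes were counted from a list of 9, of which 3 were higher and 5 lower in GFP-positive cells (median log2 fold change -0.32), beside 30.1% higher and 31.8% lower among all genes. Ebf4, the fourth Ebf gene, rose where its relatives fell: it averaged 33.1 ± 2.89 CPM in knockout and 34.2 ± 3.90 CPM in control GFP-positive cells (SD, n = 5 each), against 19.1 CPM in the knockout and 18.5 CPM in the control GFP-negative library (log2 fold change 0.84, edgeR adjusted p = 9.73e-06). Nkx6-3, the third Nkx6 gene, stayed at or below 0.355 CPM in every GFP-positive library. Its lowest value, 0.0837 CPM in control replicate 4, was below the 0.1255 CPM that 3 counts make there. GFP-negative cells held 0.840 CPM in the knockout and 1.86 CPM in the control library (log2 fold change -2.62, edgeR adjusted p = 6.39e-05). Among Groucho-type genes, Tle2 (0.81) and Aes (0.24) rose and Tle3 (-0.48) fell in log2 fold change. Zfp423, a zinc finger partner of Ebf proteins, fell by 0.46 on the log2 scale. None of the 8 genes of this list that were tested between genotypes was called.

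Of 22 genes of the motor neuron programme, 15 were higher and 5 lower in GFP-positive cells (median log2 fold change 2.52). Mnx1 (9.04), Chat (6.26) and Slc18a3, the vesicular acetylcholine transporter (5.89), were among those higher. Of these, Mnx1 is not independent of the sort, since its promoter drives the reporter. The 5 lower ones included Neurog2 (-3.28), a proneural factor, Insm1 (-3.09), which acts as progenitors begin to differentiate, and Ldb1 (-0.75), a cofactor of LIM homeodomain proteins.

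Of 15 ventral patterning genes 14 were tested; 3 were higher and 10 lower (median log2 fold change -3.33). Shh, the ventral signal itself, was higher (1.64), as were Irx5 (0.97) and Irx3 (0.28). Dbx2 (-3.87), which Nkx6 proteins repress, Olig1 (-3.60) and Ptch1 (-0.98), the Sonic hedgehog receptor, were lower. Dbx2 and Olig1 were at most 0.298 and 0.765 CPM in GFP-positive cells.

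Of 21 ventral interneuron markers, 3 were higher and 11 lower (median log2 fold change -1.55). Those that rose included Chrna2 (2.35) and Calb1 (1.16), which mark Renshaw cells, a class of interneuron that depends on Onecut factors in the mouse. Chrna2 was low throughout, averaging 1.11 CPM in GFP-positive cells. It stood at 0.219 CPM in the knockout and 0.203 CPM in the control GFP-negative library, close to the floor of 3 counts. Those that fell included Gata3 (-3.96), Vsx1 (-3.85) and Lbx1 (-4.43). Vsx1 averaged 0.0496 CPM in GFP-positive cells, below that floor. It stood at 0.804 CPM in the knockout and 0.847 CPM in the control GFP-negative library, so its fold change rests on few reads. All 12 progenitor markers were lower, among them Vim (-1.33), Sox3 (-4.40) and Sox9 (-3.56). Between genotypes no gene of these lists was called. Of 12 genes listed as sensory neuron markers 2 were higher, Ret (4.63) and Runx1 (2.27). Ret averaged 404 CPM in GFP-positive cells, against 16.5 CPM in the knockout and 16.1 CPM in the control GFP-negative library. Its place on the list does not make it a sign of sensory cells here, and which cells held it was not tested. Of the same 12 genes 4 were lower, among them Tlx3 (-5.18). Lower as well were 4 of 8 endothelial, 6 of 7 mesenchyme and 7 of 7 erythroid markers tested, with none higher. These counts are to be read against the 61.9% of all genes called in this sort.

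The profile over all 12 libraries was compared between each of the 8 genes and 12752 named genes of at least 1 CPM on average, the 8 genes themselves left out. Likeness was the root-mean-square difference in log2 CPM after each profile was centred on its mean, and since the libraries share the sort, it is led by the step between GFP-positive and GFP-negative cells. Nearest to Nkx6-1 were Foxp1 (0.066), a factor of limb-innervating motor neurons, and Hspa12a (0.081). For Nkx6-2 they were Man2b2 (0.144) and Hilpda (0.156). Cartpt, which encodes a neuropeptide precursor, was the nearest candidate to both Onecut1 (0.161) and Onecut3 (0.193), followed by the growth factor Bmp7 (0.176) for Onecut1 and the glutamate receptor Grm4 (0.199) for Onecut3. Onecut2 was nearest to Shb (0.169) and to Rtn4r (0.170), the Nogo receptor.

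Profiles nearest to Ebf1 were those of Ankrd50 (0.035) and Msl2 (0.039). Those nearest to Ebf2 were Nhlh1 (0.134), a helix-loop-helix gene of newborn neurons, and Mfng (0.173), which modifies Notch receptors. Nhlh1 ran from 20.0 to 39.2 CPM in GFP-positive cells, against 122 CPM in the knockout and 130.1 CPM in the control GFP-negative library. Nearest to Ebf3 were Ptpn13 (0.107) and Enpp2 (0.126). Among the 8 genes themselves, Onecut1 and Onecut3 were nearest to each other (0.192), as were Ebf2 and Ebf3 (0.299).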

How the data were processed

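PolyA RNA of sorted ventral cord cells was read as 50-base single ends, per the labels' protocols, from a TruSeq kit that keeps no strand information. The authors deposited estimated counts for each symbol without scaling between libraries (39.2% are whole), and TPM whose library totals run from 974800 to 1018241. The submitters' processing notes name kallisto and mm10; versions and how transcripts were summed are not given in the sources used here. Columns were matched to samples by their titles.

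Rounded counts that passed filterByExpr entered edgeR 4.0.16 with TMM scaling (robust quasi-likelihood F-test; limma 3.58.1, DESeq2 1.42.0, R 4.3.3), and p-values were adjusted by Benjamini-Hochberg across every gene in the fit, with calls under 0.05. The CPM use TMM-scaled sizes, and log2 CPM a prior count of 2. Fits were tested on simulated data in which some genes were given a log2 change of 1 or 2. At a change of 1, the genotype fit recovered 82.7% of them and the sort fit 64.3%. The fit of the difference of knockout effects recovered 27.8%. At a change of 2 these values were 97.9%, 89.8% and 55%, so the last fit misses many real differences. TPM served for levels between genes, family shares and an alternative fit. Totals put a floor of 3 counts at 0.0891 to 0.127 CPM.

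Replicate numbers paired the GFP-positive libraries, except for number 3. Residuals of same-numbered libraries gave r of 0.590, 0.469, 0.193, 0.260 and 0.384 for numbers 1 to 5. Pairs of unlike number reached 0.206, above the value of number 3. Pairs within a group differed beyond sampling noise (chi-square per degree of freedom 7.92 to 24.3).

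Members and lists were chosen with earlier results of these data known. Genes named are the members, Arhgap35, up to 3 called genes per list and direction, and the 2 nearest profiles of each member; some are not given. Genes sharing sequence with a member, Isl1, Isl2 and Lhx3, the replicate test and the paired share test were added after values were seen.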

Additional observations from a re-analysis of the deposited data

Results flagged for a closer look

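Onecut2 in control GFP-positive replicate 1 stood at 108.2 CPM, farther from the other 4 control libraries than Dixon's 95% critical value allows. It was 1 of 16 groups of 5 libraries examined (8 genes in 2 genotypes), and chance marks about 1 in 20 such groups.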

How the results depend on the processing

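Between genotypes none of the 8 genes was called under any alternative run, while the count over all genes was 6 in the edgeR fit, 11 by DESeq2, 0 with limma on log2 TPM under each of its 3 settings (pseudocount 1, pseudocount 0.1, no filter), and 0 to 8 with 1 library left out. By limma on log2 TPM the differences of Ebf1 (0.0087 with a pseudocount of 1, filtered or not; 0.0089 with 0.1) and Ebf3 (0.0051 and 0.0058) turned positive; the cause was not tested. Leaving out 1 library gave log2 fold changes of -0.038 to 0.039 for Ebf1, -0.15 to 0.13 for Ebf3, -0.0028 to 0.22 for Onecut1, -0.14 to 0.12 for Onecut2, -0.18 to 0.099 for Onecut3, 0.025 to 0.29 for Ebf2, 0.069 to 0.17 for Nkx6-1 and 0.017 to 0.21 for Nkx6-2. Shares moved between -0.81 and 1.41 points for Nkx6-1, -1.41 and 0.81 for Nkx6-2, -2.06 and 0.54 for Ebf1 and -2.19 and 1.18 for Ebf3, and by CPM the Nkx6 shares were -0.22 (Nkx6-1) and 0.22 (Nkx6-2). None passed.

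Between sorted populations 6 to 8 of the 8 genes were called under every alternative, always in the same direction; Nkx6-2 passed under 8 of them and Onecut2 failed with control libraries alone (adjusted p = 0.103) or without the control GFP-negative library. The difference of knockout effects was called for 5 genes in all, 2 by DESeq2, 0 by limma-voom, 1 with the replicate block and 0 to 6 with 1 library left out, none of them among the 8. Leaving 1 out gave -0.0084 to 0.069 for Ebf1, -0.14 to 0.14 for Ebf3, -0.062 to 0.20 for Onecut2 and -0.23 to 0.048 for Onecut3. It could not be fitted without a GFP-negative library. The replicate number was called for 1698 genes, and 566 to 2020 without 1 number, with 0 to 5 of the 8; without a filter 1 of the 8 was called, and by limma-voom 3. Among the 8 genes and Arhgap35, the replicate block changed no call other than that of Nkx6-2 between sorted populations (log2 fold change 0.62) and that of Arhgap35 between genotypes.

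Each GFP-negative group is 1 library, which limits every comparison with it.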
